A study of Mus musculus with 2 samples.

Results

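The keratin family was described in vaginal RNA of Fbln5-/- and WT mice as every probe set (a group of short probes for 1 transcript) annotated to exactly 1 gene whose symbol is Krt followed by a number and, at most, 1 letter. Of the 45101 probe sets on the array, 61 met this rule. They stood for 48 keratin genes, out of 54 in the mouse gene table used for names (GRCm38.p6). Keratin-associated protein genes were not members.
The samples were vaginal tissue of female Fbln5-/- mice and of female wild type (WT) mice, both C57/Bl6, labelled as 6 months old, ovariectomized and then given estradiol at 50 µg/kg/d for 3 d. Fbln5-/- mice lack fibulin-5, which is needed to assemble elastic fibers, in every tissue. The control animals thus share the loss of the ovaries and the estradiol, and no animals without estradiol were measured. Ovariectomy was on day 11 by the sample labels and at 2 weeks by the series description, while the methods place estradiol 2 weeks after the surgery. The methods count 2 animals in each group, but there was 1 array per genotype, and whether RNA was pooled was not stated. Without a second array of either genotype, no p-value or error between animals could be given.

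Keratins are the intermediate filaments of epithelial cells. A filament is built from equal amounts of an acidic type I keratin and a basic type II keratin, whose genes lie in 2 clusters, and epithelia change keratin pairs as their cells mature. In a stratified epithelium such as the vagina, basal cells make *Krt5* and *Krt14*, suprabasal cells of a cornifying epithelium make *Krt1* and *Krt10*, and suprabasal cells of an internal mucosa make *Krt4* and *Krt13*. *Krt6a*, *Krt6b*, *Krt16* and *Krt17* are known as stress keratins, which appear in wounded or fast-growing epithelium. *Krt8* and *Krt18* are the pair of simple epithelium, and the hair keratins build the hair shaft, its inner root sheath and the nail. Estrogen is known to thicken and cornify the vaginal epithelium of the mouse.

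The stretch before the transcription start is shown for 4 keratin genes. *Krt23* and *Krt78* exceeded 2-fold in favor of the Fbln5-/- array, *Krt76* was lower by less than 2-fold, and *Krt5* was nearly equal. *Krt80*, the other keratin past 2-fold, had no entry in the table. Each line holds the 250 bases before the start in RefSeq (GRCm38.p6), 5′ to 3′ on the strand of the gene, which is the minus strand for all 4. They lie at chr11:99493121-99493370 (*Krt23*), chr15:101954288-101954537 (*Krt78*), chr15:101892921-101893170 (*Krt76*) and chr15:101712906-101713155 (*Krt5*). Capitals mark ATAAA within the last 40 bases, the core letters of a TATA box, and GGTCA on either strand, the letters of each arm of an estrogen response element.
Krt23: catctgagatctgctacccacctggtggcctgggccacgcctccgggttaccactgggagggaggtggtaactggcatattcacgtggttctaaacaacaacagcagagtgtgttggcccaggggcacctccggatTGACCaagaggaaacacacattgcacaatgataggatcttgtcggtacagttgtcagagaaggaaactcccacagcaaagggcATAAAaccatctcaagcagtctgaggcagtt
Krt78: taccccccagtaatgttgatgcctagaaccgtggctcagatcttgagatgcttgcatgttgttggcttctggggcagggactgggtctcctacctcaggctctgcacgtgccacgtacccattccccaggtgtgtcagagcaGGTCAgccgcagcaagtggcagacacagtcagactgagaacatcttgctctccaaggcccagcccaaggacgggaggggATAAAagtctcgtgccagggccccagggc
Krt76: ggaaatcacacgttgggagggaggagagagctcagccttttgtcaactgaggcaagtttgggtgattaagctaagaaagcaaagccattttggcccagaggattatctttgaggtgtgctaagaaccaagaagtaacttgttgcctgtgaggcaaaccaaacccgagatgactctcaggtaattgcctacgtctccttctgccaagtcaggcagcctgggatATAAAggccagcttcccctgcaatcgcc
Krt5: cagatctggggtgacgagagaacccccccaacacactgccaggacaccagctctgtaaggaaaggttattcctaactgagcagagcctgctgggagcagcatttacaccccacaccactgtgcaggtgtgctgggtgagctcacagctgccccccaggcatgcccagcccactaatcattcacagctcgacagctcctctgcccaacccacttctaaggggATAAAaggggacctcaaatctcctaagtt
All 4 stretches held ATAAA, with its first base 31 bases before the start in *Krt23*, 29 in *Krt78*, 28 in *Krt76* and 29 in *Krt5*. In *Krt76* these letters were part of the full TATAAA, and in the other 3 they were not. GGTCA was found in *Krt23* and *Krt78*, 114 and 108 bases before the start, and in neither *Krt76* nor *Krt5*. The table held a start for 32 of the 48 keratin genes. ATAAA stood within the last 40 bases on either strand in 21 of these 32 (65.6%), against 8.42% of the 32851 stretches of all genes, and TATAAA, which contains it, in 13 (40.6%), against 3.03%. GGTCA was present within 250 bases in 11 of 32 (34.4%), close to the 35.2% of all stretches, and TGANTCA, the letters of an AP-1 site, in 1 of 32, that of *Krt13*, against 6.75%. Among the 17 measured keratins with a listed start, ATAAA was held by 10, TATAAA by 4 and GGTCA by 7, and those with GGTCA include *Krt8* (log2 ratio 0.04) and *Krt18* (0.01) as well as *Krt23* and *Krt78*. A match of letters describes these stretches only.

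RNA was hybridized to Affymetrix mouse expression arrays, and each array was scaled so that both had the same median signal. A gene was taken as measured when its brightest probe set reached a scaled signal of 100 on either array, and ratios are those of that probe set, as log2 of Fbln5-/- over WT. The targeted gene itself, *Fbln5*, read 30.4 on the Fbln5-/- array and 410.4 on the WT array, and its other probe set was under 100 on both. Control probe sets along *Gapdh* and *Actb*, read from the 3′ to the 5′ end of the transcripts, had log2 ratios of 0.05, −1.16 and −4.44 for *Gapdh* and −0.18, −1.22 and −1.87 for *Actb*. Signal toward 5′ ends was thus lower on the Fbln5-/- array. The position of keratin probe sets between the 5′ and 3′ ends was not determined, and the part of this in any keratin ratio was not tested. Markers of stratified epithelium were present on both arrays, with 7 of 7 at 100 or more on each, among them *Perp* (log2 ratio 0.07), *Sfn* (−0.16) and *Cdh1* (0.41). Of the 7, 5 lay within 1.5-fold. *Lgals7*, galectin-7 of stratified epithelium, had signals of 4765 on the Fbln5-/- array and 11234 on the WT array (2.36-fold lower). *Epcam*, an epithelial adhesion molecule named after its values were seen, had 6290 on the Fbln5-/- array and 3159 on the WT array (1.99-fold higher).

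Keratin transcripts were present in abundance in both genotypes and mostly differed little between them. Of the 48 keratin genes, 27 were measured, and all 27 were at 100 or more on both arrays, so that neither direction was closed to any of them. Past a 2-fold difference lay 3 of these 27 with the higher signal on the Fbln5-/- array, where the share among 11934 measured genes was 7.21%. In the lower direction the number of keratins was 0, beside a share of 4.77% among measured genes. Within 1.5-fold were 22 of 27 keratins (81.5%), against 69.6% of all measured genes. The median log2 ratio of the keratins was 0.13, beside 0.16 for all measured genes. Under 4 other scalings of the arrays the median of all genes moved to between 0.05 and 0.11 and that of the keratins to between 0.02 and 0.08, so a log2 ratio within about 0.1 of 0 has no settled direction here.

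**Figure D1:**
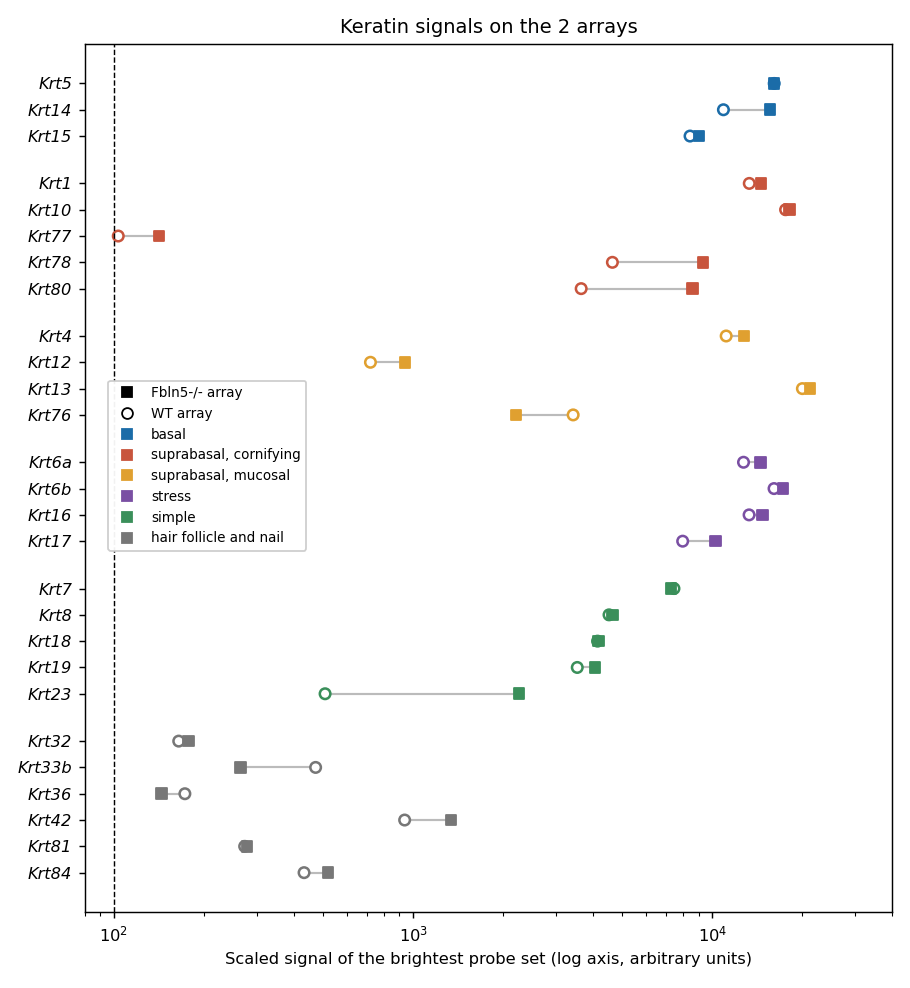
Scaled signal (log axis) of the brightest probe set of each of 27 measured keratin genes on the Fbln5-/- array (filled squares) and the WT array (open circles), 1 array each, colored by class, with a dashed line at 100. The markers lie close together for most genes and far apart for *Krt23* (2258 and 507.8), *Krt80* (8602 and 3645) and *Krt78* (9302 and 4634).

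*Krt23* had the widest gap in the family. Its signal was 2258 on the Fbln5-/- array and 507.8 on the WT array, 4.45-fold higher (log2 ratio 2.15, and 2.05 to 2.15 over the 5 scalings). *Krt23* is a type I keratin known from simple epithelia and induced in injured mouse liver. *Krt80*, a type II keratin that in human epithelia is found beside desmosomes and in late differentiation, had a signal of 8602 on the Fbln5-/- array and 3645 on the WT array, 2.36-fold higher. *Krt78*, a type II keratin of the suprabasal layers of stratified epithelium, had a signal of 9302 on the Fbln5-/- array and 4634 on the WT array. This is 2.01-fold higher and just past the limit, and with each of the 4 other scalings *Krt78* lay under 2-fold, down to a log2 ratio of 0.90. Each of these 3 genes had 1 probe set, so none of the 3 ratios could be set beside a second probe set of the gene.

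Basal keratins were nearly level between the genotypes. *Krt5*, the type II keratin of basal cells, had a signal of 16059 on the Fbln5-/- array and 16102 on the WT array. *Krt15*, a basal type I keratin, had 9011 on the Fbln5-/- array and 8425 on the WT array. *Krt14*, the usual partner of *Krt5*, had 15581 on the Fbln5-/- array and 10892 on the WT array at its brightest probe set (log2 ratio 0.52). The other 2 *Krt14* probe sets gave log2 ratios of 0.10 and −0.29, so its direction depended on the probe set. All 3 basal keratins were within 1.5-fold, and their median log2 ratio was 0.10 (−0.02 to 0.10 over the 5 scalings). *Trp63*, the p63 transcription factor of basal cells, named after its values were seen, had 7115 on the Fbln5-/- array and 6103 on the WT array.

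Among suprabasal keratins of cornifying epithelium, the classical pair was nearly level, and *Krt80* and *Krt78* were higher on the Fbln5-/- array. *Krt1* had a signal of 14532 on the Fbln5-/- array and 13289 on the WT array, and its partner *Krt10* had 18123 and 17574 on these arrays. The log2 ratio of *Krt1* was 0.13, and the log2 ratio of *Krt10* (0.04) was below 0 under the 4 other scalings. *Krt78* and *Krt80* belong to this class, so that 2 of its 5 measured members passed 2-fold upward, beside 7.21% of all measured genes, and 0 passed it downward, beside 4.77%. Under each of the 4 other scalings 1 of the 5, *Krt80*, was past 2-fold. The classes were listed with earlier results of these data known, so these counts are no test of the class. *Krt77*, which in human skin is known from sweat gland ducts, was dim, with 141.3 on the Fbln5-/- array and 103.4 on the WT array (1.37-fold higher). The median of the class was 0.45, the highest of the 6 classes under each of the 5 scalings, and it rests on 5 genes. This value is the ratio of *Krt77*, the dimmest of the 5. It was 0.36 with 32 added to each signal, and 0.57 with a limit of 200, which leaves *Krt77* out. *Krt2*, a keratin of the upper epidermis, was under 100 on both arrays (21.0 and 20.6).

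The mucosal suprabasal keratins did not move together. *Krt13* had a signal of 21197 on the Fbln5-/- array and 19999 on the WT array, the highest keratin signal on each array, and its partner *Krt4* had 12751 and 11124 on these arrays. *Krt12*, best known from the corneal epithelium, had 939.8 on the Fbln5-/- array and 720.0 on the WT array (1.31-fold higher). *Krt76*, a type II keratin known from the palate and other oral mucosa, ran the other way, with 2208 on the Fbln5-/- array and 3426 on the WT array (1.55-fold lower, log2 ratio −0.63). *Krt76* had 1 probe set, of a kind (_x_at) in which some probes can also match other genes. The median of the 4 measured members was 0.14, and *Krt24* was under 100 on both arrays.

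Stress keratins were bright on both arrays and none differed by 1.5-fold. *Krt6a* had a signal of 14479 on the Fbln5-/- array and 12713 on the WT array, and *Krt6b* had 17218 and 16081 on these arrays. *Krt16*, the type I partner of the *Krt6* keratins, had 14730 on the Fbln5-/- array and 13270 on the WT array. *Krt17* had 10241 on the Fbln5-/- array and 7960 on the WT array, 1.29-fold higher. All 4 had log2 ratios above 0 (0.10 to 0.36), and *Krt6b* was below 0 under 1 of the 4 other scalings. Their median of 0.17 was close to the 0.16 of all measured genes. *Krt6a* and *Krt6b* are close copies, and whether their probes share targets was not tested.

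Simple-epithelium keratins were level apart from *Krt23*. *Krt8* had a signal of 4641 on the Fbln5-/- array and 4516 on the WT array, and *Krt18*, its partner, had 4157 and 4135 on these arrays. *Krt7*, known from ducts and glands, had 7278 on the Fbln5-/- array and 7444 on the WT array. *Krt19*, a type I keratin that lacks most of the usual tail, had 4050 on the Fbln5-/- array and 3537 on the WT array. These 4 genes had log2 ratios from −0.03 to 0.20, against 2.15 for *Krt23*, and the median of the 5 was 0.04 (below 0 under the 4 other scalings). The 2 remaining members, *Krt20*, known from the intestine and the upper urothelium, and the keratin-like *Krt222*, were under 100 on both arrays.

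Hair and nail keratins were mostly undetected. Of the 23 with a probe set, 17 were under 100 on both arrays. Among the 6 measured, *Krt33b*, a hair shaft keratin, had the lowest ratio of the family, with signals of 265.0 on the Fbln5-/- array and 472.1 on the WT array (1.78-fold lower, log2 ratio −0.83). *Krt42*, a type I keratin of the mouse nail unit, had 1338 on the Fbln5-/- array and 936.8 on the WT array at an _x_at probe set, and 153.6 and 109.8 on these arrays at another (log2 ratios 0.51 and 0.48). *Krt84*, known from the tongue papillae and the nail, had 519.5 on the Fbln5-/- array and 432.0 on the WT array.
The dimmer members lay within 1.5-fold. *Krt81* had signals of 278.2 on the Fbln5-/- array and 273.5 on the WT array, *Krt32* had 177.7 and 164.6 on these arrays, and *Krt36* had 144.5 and 172.6. Markers of the hair follicle showed no shared shift toward the Fbln5-/- array. Of 10 with a probe set, 5 were at 100 or more on each array, and the list summed to 4502 on the Fbln5-/- array and 5824 on the WT array. *Hoxc13* and *Lhx2*, regulators of the hair follicle, and *Tchh*, trichohyalin, were under 100 on both. Of those measured, *Msx2* had a log2 ratio of 0.17, *Foxn1* −0.15, *S100a3* −0.85 and *Padi3* −0.57.

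**Figure D2:**
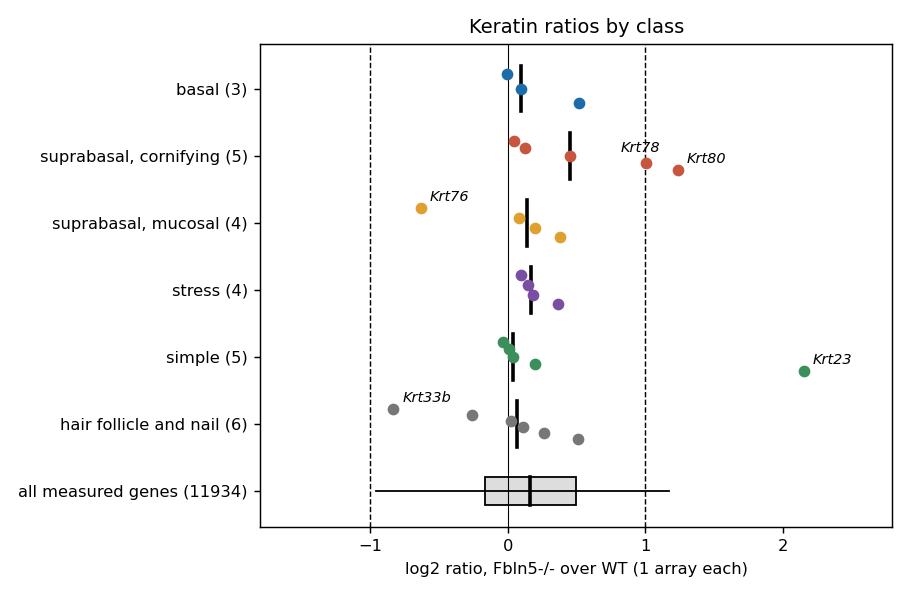
Ratio on the log2 scale, Fbln5-/- over WT, for the 27 measured keratin genes by class, with the number of genes in parentheses, black bars at class medians and dashed lines at a 2-fold difference. The bottom row gives all 11934 measured genes as a box over the middle 50%, a line over the middle 90% and a bar at the median (0.16), and *Krt23*, *Krt80* and *Krt78* are the keratins at or past the right dashed line.

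The 21 keratin genes under 100 on both arrays are given no ratio. Beside *Krt2*, *Krt24*, *Krt20* and *Krt222* they were the inner root sheath keratins *Krt25*, *Krt26*, *Krt27*, *Krt28*, *Krt71*, *Krt72* and *Krt73*, the companion layer keratin *Krt75*, *Krt79* of the hair canal, and the hair keratins *Krt31*, *Krt33a*, *Krt34*, *Krt35*, *Krt82*, *Krt83*, *Krt86* and *Krt88*. The brightest of these was *Krt79*, with 91.3 on the Fbln5-/- array and 78.2 on the WT array. Signals this low do not show that a gene was silent. *Krt9*, *Krt39*, *Krt40*, *Krt74*, *Krt87* and *Krt90* had no probe set of their own in the annotation used and were not analysed here.

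Many keratins lay near the top of the range of the arrays. Of the 450 brightest probe sets (1%), 13 were keratin probe sets, and the highest keratin signals were 21197 on the Fbln5-/- array and 19999 on the WT array, where the highest signals of all were 22877 and 22113. Ratios were narrow at such signals for all genes. At a mean signal of at least 10000, 97.3% of 256 genes lay within 1.5-fold, and so did all 9 keratins. At 3000 to 10000, 83.3% of 1482 genes were within 1.5-fold, as were 6 of 8 keratins, with *Krt78* and *Krt80* outside. At 1000 to 3000, 71.7% of 3050 genes were within 1.5-fold, against 1 of 3 keratins (*Krt42*), with *Krt23* and *Krt76* outside. Whether the brightest probe sets had reached their upper limit was not tested, and signals of different probe sets do not rank genes by transcript number.

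**Figure D3:**
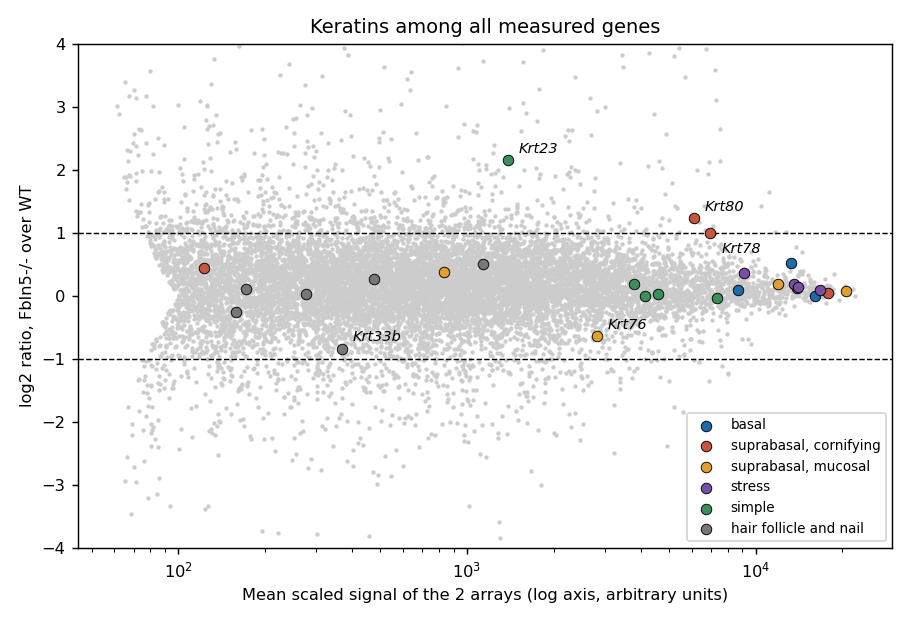
Log2 ratio (Fbln5-/- over WT) against the mean scaled signal of the 2 arrays (log axis) for all measured genes (gray) and the keratins (colored by class), with dashed lines at a 2-fold difference, and with 62 genes beyond a log2 ratio of 4 in either direction not drawn. The spread of gray points narrows toward the right, where 9 keratins lie above a mean signal of 10000, all within 1.5-fold.

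The ratios of type I and type II partners were set side by side. Of 12 listed pairs, 9 had both partners measured, and in 8 of the 9 the log2 ratios of the partners lay within 0.3 of each other. These pairs hold none of the keratins past 2-fold, and the count was not set against keratins that are not partners. The difference, type II minus type I, was 0.03 for *Krt8* and *Krt18*, 0.04 for *Krt6a* and *Krt16*, 0.08 for *Krt1* and *Krt10*, and 0.11 for *Krt4* and *Krt13*. It was −0.10 for *Krt5* and *Krt15*, −0.16 for *Krt8* and *Krt19*, −0.23 for *Krt7* and *Krt19*, and −0.26 for *Krt6b* and *Krt17*. The pair beyond 0.3 was *Krt5* with *Krt14* (−0.52), which rests on the brightest of 3 *Krt14* probe sets. With the next brightest, the log2 ratio of *Krt14* was 0.10, beside 0.00 for *Krt5*. As whole groups, the 14 type I keratins and the 13 type II keratins shared a median log2 ratio of 0.13. They held 1 and 2 genes past 2-fold upward, beside 7.21% of all measured genes, and 0 downward, beside 4.77%.

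Probe sets of the same keratin gave similar ratios for most genes. Of the 27 measured genes, 8 had several probe sets past the filter. The log2 ratios of a gene spanned 0.12 or less in *Krt42*, *Krt12*, *Krt8* and *Krt6a*, 0.25 in *Krt4*, 0.34 in *Krt13*, 0.78 in *Krt17* and 0.80 in *Krt14*. The second *Krt17* probe set was dim, with 127.9 on the Fbln5-/- array and 58.0 on the WT array (at least 1.28-fold higher). Over the 7 keratin genes with several probe sets that reached 100 on each array, the pooled SD of the log2 ratios within a gene was 0.20, against 0.52 over 4114 genes of the whole array. Beyond both SDs in size lay the log2 ratios of *Krt23* (2.15), *Krt80* (1.24) and *Krt78* (1.01) above 0, and of *Krt33b* (−0.83) and *Krt76* (−0.63) below 0. These are also the measured keratins outside 1.5-fold. Ratios of this size were common on the arrays, since 69.6% of all measured genes lay within 1.5-fold, against 81.5% of the keratins. Probe sets of a gene share the RNA of the 2 arrays and are not replicates of a genotype, so these SDs do not measure the spread between animals.

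**Figure D4:**
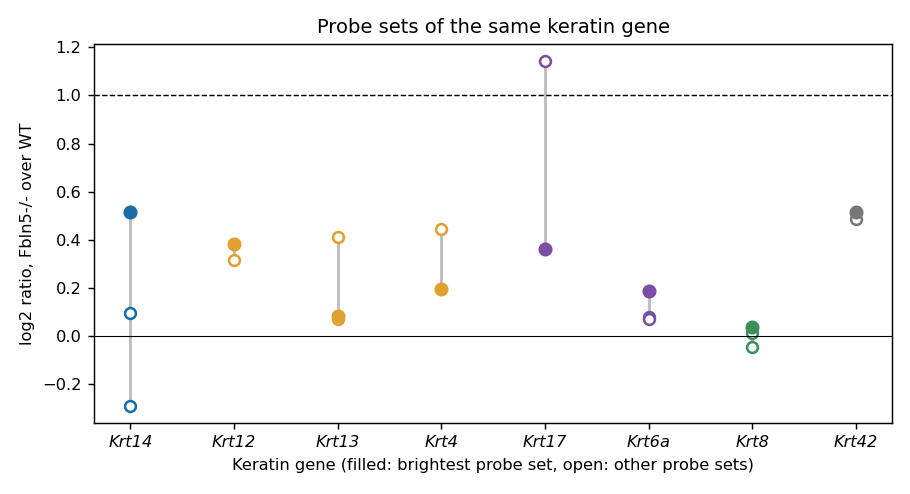
Log2 ratio (Fbln5-/- over WT) of each probe set past the filter in the 8 keratin genes with several, the brightest filled and the others open, colored by class, with a dashed line at a 2-fold difference. *Krt14* (−0.29 to 0.52) and *Krt17* (0.36 to 1.14) spread widest and *Krt42* least.

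The keratins that differed were not neighbors. The 54 keratin genes of the gene table fall evenly on chromosome 11 (27, all type I) and chromosome 15 (27, type II and *Krt18*). *Krt23* is number 10 in order on chromosome 11, between *Krt20*, under 100 on both arrays, and *Krt39*, not analysed here. The nearest measured gene was *Krt12*, at 0.38. *Krt80* is the first gene of the chromosome 15 cluster, and *Krt7*, next to it, had a log2 ratio of −0.03. *Krt78* lies near the other end, between *Krt79*, under 100, and *Krt8* (0.04). *Krt76* (−0.63) stands between *Krt77* (0.45) and *Krt4* (0.20).

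**Figure D5:**
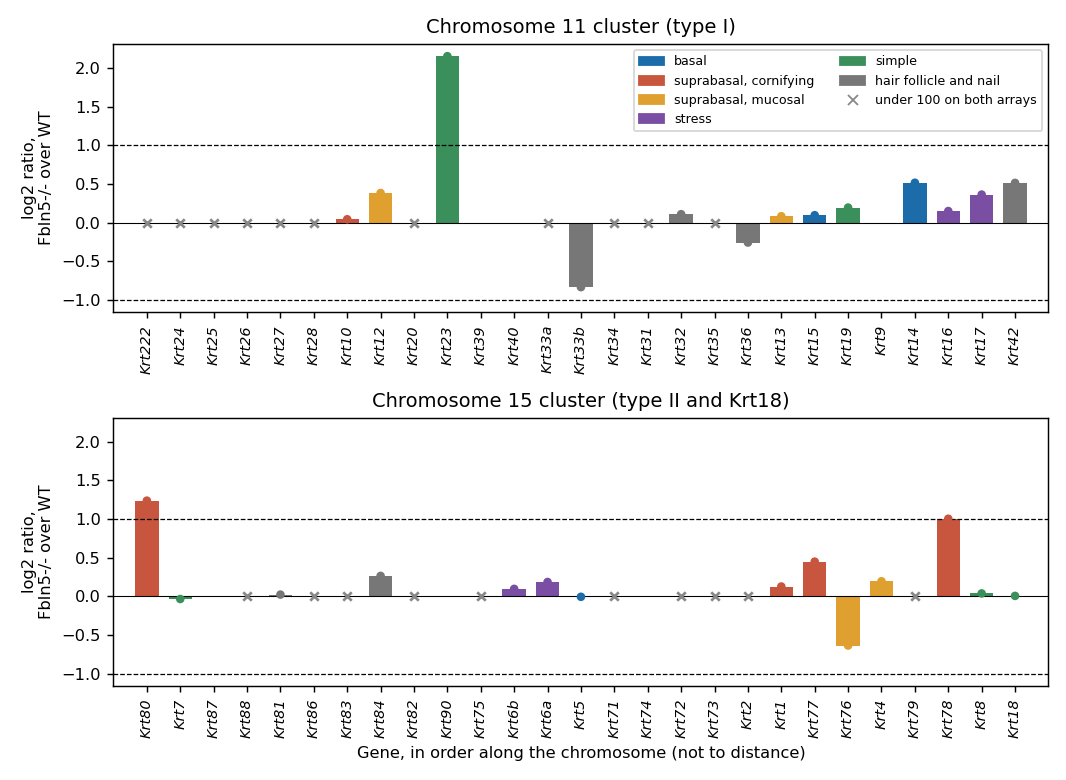
Ratio on the log2 scale, Fbln5-/- over WT, for keratin genes in their order along chromosome 11 (top) and chromosome 15 (bottom), colored by class, with dashed lines at a 2-fold difference. Crosses are genes under 100 on both arrays, empty places are genes with no probe set of their own, and the bars of *Krt23*, *Krt80* and *Krt78* stand apart from each other and from their neighbors.

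Genes listed as partners of keratin filaments ranged from level to much higher on the Fbln5-/- array. Those past 2-fold were filaggrin-like genes, and the desmosomal genes named here were nearly level. Of 15 listed partner genes, 13 were measured, and 3 exceeded 2-fold with the Fbln5-/- array higher, 0 with it lower (7.21% and 4.77% of all measured genes), around a median log2 ratio of 0.21. Among desmosomal proteins, log2 ratios were 0.08 for *Dsp* (desmoplakin), 0.12 for *Pkp1* (plakophilin 1) and −0.10 for *Jup* (plakoglobin). Of the related plakins, named after their values were seen, *Ppl* (periplakin) had 7893 on the Fbln5-/- array and 4412 on the WT array (1.79-fold higher), *Eppk1* (epiplakin) was 1.32-fold higher, and *Evpl* (envoplakin) had a log2 ratio of 0.03. *Rptn*, repetin of the cornified envelope, had signals of 11249 on the Fbln5-/- array and 2573 on the WT array, 4.37-fold higher. The other 2 past 2-fold, named after their values were seen, were *Hrnr* (hornerin), with 5556 on the Fbln5-/- array and 321.0 on the WT array (17.3-fold), and *Flg* (filaggrin, which bundles keratin filaments in the outer epidermis), with 2781 and 678.7 on these arrays (4.10-fold). These 3 belong to the same family of filaggrin-like proteins.
Other intermediate filament genes, those of non-epithelial cells and the nuclear lamins, were mostly lower on the Fbln5-/- array. Of 15 listed, 10 were measured, and 2 of these had a log2 ratio above 0, *Vim* and *Synm*. The median log2 ratio of the 10 was −0.42 (−0.41 with signals under 100 set to 100), beside 0.13 for the keratins, a difference that was not tested. The 1 gene past 2-fold downward (4.77% of all measured genes) was *Prph* (peripherin, of neurons), which was named for this ratio. It had 86.0 on the Fbln5-/- array and 290.3 on the WT array, at an _x_at probe set. *Vim*, vimentin of connective tissue cells, had a log2 ratio of 0.33, the nuclear lamin *Lmna*, which epithelial cells also make, −0.37, *Des*, desmin of muscle, −0.63, and *Synm*, synemin, 0.75. In whole tissue, fewer cells of a type and less RNA per cell cannot be told apart.
Markers of other tissues that a vaginal sample can hold were read on the same arrays. Adipocyte markers were higher on the Fbln5-/- array, with 4 of 4 measured past 2-fold, beside 7.21% of all measured genes. Of these, 2 reached 100 on both arrays, *Fabp4* (2.88-fold) and *Adipoq* (10.9-fold). The WT signal of *Adipoq*, 104.1, was only just over this limit. *Retn* and *Ucp1* reached 100 on the Fbln5-/- array alone, so they could not have been counted as lower. The 6 adipocyte genes with a probe set summed to 8094 on the Fbln5-/- array and 2172 on the WT array. Markers of uterine glandular epithelium, which makes simple keratins, summed to 24770 on the Fbln5-/- array and 21722 on the WT array over 9 genes, and none of the 8 measured was 2-fold different. Most of these sums was 1 gene, *Ltf*, with 15164 on the Fbln5-/- array and 14452 on the WT array. The median log2 ratio of the 8 measured was 0.42, beside 0.16 for all measured genes, with 6 of them above 0. Urothelial markers summed to 620.4 and 676.5 on these arrays, with *Upk2* alone at 100 or more on both. Sebaceous markers had signals of at most 116.1 and 77.1 on these arrays. Smooth muscle markers summed to 34056 on the Fbln5-/- array and 34739 on the WT array. *Acta2* (log2 ratio 0.14) and *Tagln* (−0.02) made up most of these sums. The median log2 ratio of the 6 smooth muscle markers was −0.29, with 2 of them above 0. The part of these tissues in the keratin ratios was not tested.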

How the data were processed

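Vaginal RNA of 1 Fbln5-/- and 1 WT array was analysed. Linear signal intensity values of 45101 probe sets were deposited by the authors, and the submitters' processing notes name MAS5, without a version. Scaling to the 50th percentile and a limit of 100 followed the methods; detection calls were not used. The factors were 1.03 for Fbln5-/- and 0.972 for WT, and 1 signal of 0 was set to 0.1.
Gene names came from the platform annotation (34958 with 1 symbol, 932 with several, 9211 not listed), and 34754 matched the GRCm38.p6 gene table. The files name no genome build, so coordinates are those of the gene table. Genes were named by a rule: all keratins, up to the 4 brightest measured genes of each other list, and the check genes. Other genes were named outside this rule, some of them after their values were seen. The members, classes and lists were chosen with earlier results of these data known. Ratios were counted past 2-fold, no test between genotypes was possible, and the number of arrays limits the precision. The alternatives covered scaling, filter, offset, floor, probe set and threshold. The steps were tested on simulated arrays with planted ratios. Python 3.11.15, numpy 2.4.6, pandas 2.3.3 and matplotlib 3.10.9 were used.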

Additional observations from a re-analysis of the deposited data

Results flagged for a closer look

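Outside the members, 49 probe sets were annotated to keratin-associated protein genes, the matrix proteins of hair, and 5 of them were at 100 or more on at least 1 array. Of these, 2 probe sets exceeded 2-fold toward the Fbln5-/- array, which drew attention because the comparisons above do not use them. Of all measured genes 7.21% did, but that share counts genes by their brightest probe set, a different unit. A probe set shared by *Krtap3-2* and *Krtap3-3* had a signal of 3815 on the Fbln5-/- array and 240.1 on the WT array (15.9-fold higher). Another probe set shared by these 2 genes was under 100 on both arrays, with 17.4 on the Fbln5-/- array and 0.68 on the WT array. A *Krtap12-1* probe set (_s_at) had 355.2 on the Fbln5-/- array and 48.1 on the WT array (at least 3.55-fold higher). It reached 100 on the Fbln5-/- array alone, so it could not have been counted as lower. The other probe set of the gene had 603.7 and 349.5 on these arrays (1.73-fold higher). *Krtap3-1* had 173.7 on the Fbln5-/- array and 146.3 on the WT array. *Krtap10-4* ran the other way, with 92.2 on the Fbln5-/- array and 151.8 on the WT array (at least 1.52-fold lower).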

How the results depend on the processing

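The number of keratins past 2-fold toward the Fbln5-/- array was 3, and it was 2 under each of the 4 other scalings, which drop *Krt78*. It was 4 with the dimmest probe set of each gene past the filter, which adds *Krt17*. Without a filter it was 6, with 2 lower, and at a 3-fold limit it was 1. Under the other alternatives it stayed at 3. No keratin was at least 2-fold lower except without a filter. Over all genes the counts higher and lower were 861 and 569, with 2048 and 1535 without a filter, 316 and 211 at 3-fold, and 1293 lower with the dimmest probe set. This split was 679 and 698 with the median ratio of well-measured probe sets (100 or more on each array) fixed at 1, 723 and 667 on the deposited scale, 769 and 615 at the 75th percentile, 801 and 611 after quantile normalization, and 779 and 835 with the mean over the probe sets of a gene. All class medians moved by less than 0.52, the SD between probe sets of a gene, as did 314 of 316 single-gene values. The other 2 were *Krt14* (−0.29) and *Krt17* (1.14) at their dimmest probe set. No paired analysis was possible because each genotype had 1 array, and for the same reason no replicate could be left out. Deposited signals were under 100 for 55.9% of probe sets on the Fbln5-/- array and 54.8% on the WT array, which sets what can be seen.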
